A study of Mus musculus with 6 samples.

Results

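The genes described here are the protein-coding genes of complexes III, IV and V and the ribosomal RNA genes of the mouse mitochondrial genome, chosen by symbol. They are mt-Co1, mt-Co2, mt-Co3, mt-Cytb, mt-Atp6, mt-Atp8, mt-Rnr1 and mt-Rnr2, 8 of the 22030 genes of the count table and 8 of its 26 mitochondrially encoded genes. All 8 passed the filter on low counts, which left 13067 genes for testing. RNA was sequenced from bone marrow mesenchymal stem cells of the mouse in 3 libraries of RIOK3 knockdown cells, titled siRIOK3, and 3 control libraries, titled siNC and labelled as wild type. In the design text, lentiviral stable lines and a knockout are both mentioned, and the sample titles point to a small interfering RNA, so the agent is not settled by the labels. The sources used here do not give strain, culture medium or time of harvest, or say if replicates were grown separately, and p-values therefore measure only the spread between these libraries, which may be technical.

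Mammalian mitochondria keep a small circular genome whose genes are transcribed as long precursors that run through many genes. The precursors are cut at the transfer RNAs that lie between most genes, and the messenger RNAs then receive short poly(A) tails while the ribosomal RNAs receive only a few adenines. The messenger RNAs encode hydrophobic core subunits of the respiratory chain and of ATP synthase, which join subunits encoded in the nucleus, and mt-Rnr1 and mt-Rnr2 are the 12S and 16S RNAs of the mitochondrial ribosome that translates them. Parts of the mitochondrial genome were also copied into nuclear chromosomes during evolution, and reads from a recent copy cannot always be told from reads of the original.

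The sequences show features that bear on counting. In the order of the genome the genes run mt-Rnr1, mt-Rnr2, mt-Co1, mt-Co2, mt-Atp8, mt-Atp6, mt-Co3 and mt-Cytb, with complex I genes between some of them, and all 8 are on the same strand. The end of mt-Atp8 and the start of mt-Atp6 are the same 43 bases, read in different frames and given here in capitals. A read that covers them overlaps both genes. All sequences are transcripts of the GENCODE M21 annotation of GRCm38, read 5′ to 3′ in the sense of the gene; the submitters name GRCm39, and no coordinates are given for that reason.
mt-Atp8, bases 147 to 204: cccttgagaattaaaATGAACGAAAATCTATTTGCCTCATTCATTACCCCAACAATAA
mt-Atp6, bases 1 to 58: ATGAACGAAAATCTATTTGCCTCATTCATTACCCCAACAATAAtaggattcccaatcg

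Both mt-Co3 and mt-Cytb end in a single T, in capitals below, where the poly(A) tail completes the stop codon in mammalian mitochondria. These ends are shown because they mark where the encoded message stops and the tail begins.
mt-Co3, bases 754 to 784: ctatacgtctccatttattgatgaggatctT
mt-Cytb, bases 1114 to 1144: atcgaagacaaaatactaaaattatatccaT

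Near-identical copies were found in nuclear pseudogenes for 4 of the 8 genes, taking alignments of at least 95% identity over at least 100 bases. The pseudogene Gm28661 on chromosome 1 matched 681 of the 684 bases of mt-Co2 without a mismatch, as its first 60 bases show, and Gm13341 on chromosome 2, with at most 3 counts in any library, matched mt-Co2 at 95.9% identity. Gm28437 on chromosome 1 matched 783 of the 784 bases of mt-Co3 and Gm10925, also on chromosome 1, matched 678 of the 681 bases of mt-Atp6, both without a mismatch.
mt-Co2, bases 1 to 60: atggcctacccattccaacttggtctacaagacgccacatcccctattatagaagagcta
Gm28661, the same bases: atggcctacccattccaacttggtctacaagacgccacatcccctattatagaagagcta

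Only the end of mt-Co1 had such a copy on chromosome 1. Gm29216 matched its last 483 bases with 1 mismatch, A1066T, counted from the first base of mt-Co1. Gm13340 on chromosome 2 covered all 1545 bases at 97.6% identity with 37 mismatches, of which T1072C lies in the stretch below, where bases that differ from mt-Co1 are in capitals, as are those of mt-Co1 that differ from either copy.
mt-Co1, bases 1063 to 1122: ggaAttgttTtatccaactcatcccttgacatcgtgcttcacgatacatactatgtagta
Gm29216, the same bases: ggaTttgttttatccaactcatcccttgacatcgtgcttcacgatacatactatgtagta
Gm13340, the same bases: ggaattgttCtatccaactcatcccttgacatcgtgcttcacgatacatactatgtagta

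Windows of 150 bases, the read length in the labels, were then searched in these copies. An exact match was found for 99.4% of the windows of mt-Co2, 99.8% of those of mt-Co3, 99.4% of those of mt-Atp6 and 23.6% of those of mt-Co1. mt-Cytb, mt-Atp8, mt-Rnr1 and mt-Rnr2 had no such copy among the transcripts of the genes in the table. The chromosome 1 pseudogenes lie next to each other, and by rising position on the chromosome their order is the reverse of that of their originals. No annotated gene lies between Gm10925 and Gm28661, where mt-Atp8 would fall. Whether an unannotated copy of mt-Atp8 lies there was not tested, because no genome sequence was used here. The sources used here do not say how reads that match several places were counted, so the counts of mt-Co2, mt-Co3, mt-Atp6 and their copies are uncertain.

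The libraries held between 28327612 and 30517261 counts in the knockdown and between 31089006 and 32569544 in control. The targeted gene, Riok3, which encodes an atypical protein kinase, had 1034 to 1155 counts per knockdown library and 4022 to 5365 per control library. Control replicate 2 stood apart from the other control libraries in these genes, as described below. Of the markers of bone marrow stroma 13 of 14 passed the filter on low counts. The summed level of the list was 1007 to 1009.8 CPM (counts scaled by the library total) in the knockdown and 682 to 920 CPM in control. The markers did not move together, as 6 were called higher and 5 lower in the knockdown. Col1a2 was at a log2 fold change, knockdown over control, of 1.21 and Vcam1 at −1.44. Markers of leukocytes summed to 50.8 to 56.7 CPM in the knockdown and 23.8 to 39.5 CPM in control, of which most was Cd68, a lysosomal protein gene, while Ptprc, the pan-leukocyte marker, had at most 3 counts in any library. The adipocyte markers Lpl and Fabp4 were called lower in the knockdown, but neither was called with the GC offset described below (−0.27 and −0.25). The summed level of the adipocyte list was 38.8 to 40.1 CPM in the knockdown and 88.7 to 97.9 CPM in control. Plin1 was at 0 in 5 of 6 libraries. Endothelial markers summed to 8.98 to 9.64 CPM in the knockdown and 2.80 to 7.34 CPM in control, and the erythroid markers were not among the genes of the table. Of 8 RNAs that carry no poly(A) tail, 3 were in the table, and together they made up 0.0328 to 0.212 CPM in the knockdown and 0.0634 to 0.611 CPM in control. The part of these shifts in the results below was not tested.

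All 8 genes were lower in the knockdown, and in each of them every knockdown library lay below every control library. The quasi-likelihood test of edgeR, fitted on all tested genes with TMM scaling, called all 8 lower at a Benjamini-Hochberg adjusted p under 0.05. The same test called 48.0% of all tested genes, 26.8% lower and 21.1% higher, and 31.3% of all tested genes had every knockdown library below every control library. The median log2 fold change, knockdown over control, was −3.02 over the 8 genes and 0.01 over all tested genes. In bulk RNA, fewer cells with many mitochondria and less mitochondrial RNA per cell cannot be told apart. Fold changes over all tested genes also followed base composition, as described below. Together the 8 genes took 0.494, 0.512 and 0.543% of all counts in knockdown replicates 1, 2 and 3, and 1.18, 0.797 and 1.15% in control replicates 1, 2 and 3. The groups did not overlap, and the difference of −0.526 percentage points had p = 0.1 in a two-sided exact permutation test, the smallest that 3 libraries against 3 can give.

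**Figure D1:**
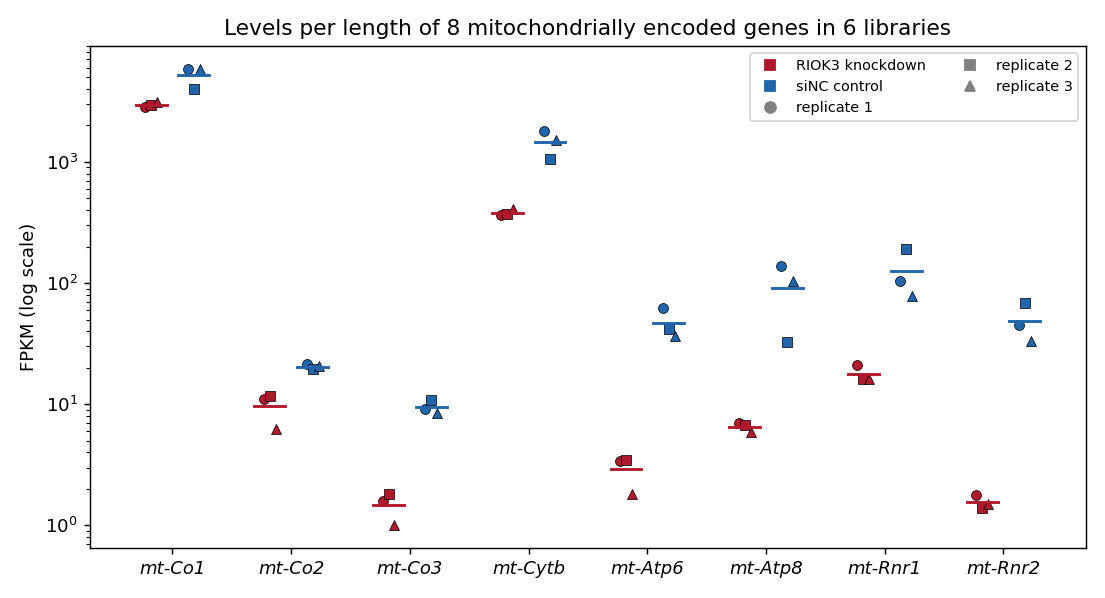
Level per length (FPKM, log scale) of each gene in 3 RIOK3 knockdown libraries (red, left of each pair) and 3 siNC control libraries (blue); symbols mark the replicate and bars the group mean. Every knockdown point lies below every control point of its gene, and mt-Co1 and mt-Cytb stand far above the other genes in both groups.

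Among the complex IV genes, mt-Co1 encodes the catalytic subunit of cytochrome c oxidase. It had 133220, 141983 and 139627 counts in knockdown replicates 1, 2 and 3, and 305946, 197791 and 297828 in control replicates 1, 2 and 3. The knockdown libraries lay close together, and control replicate 2 was the lowest of the control libraries. The normalised level was 4301 ± 180.2 CPM in the knockdown and 9138 ± 1760.1 CPM in control (SD, n = 3 each), 2.12-fold lower, with a log2 fold change of −1.09 (SE 0.174, edgeR adjusted p = 0.00236). This gene alone made up 90.7 to 90.9% of the counts of the 8 genes in knockdown libraries and 79.4 to 82.4% in control libraries.

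mt-Co2 encodes the subunit that takes electrons from cytochrome c. It had 230, 249 and 123 counts in the knockdown and 496, 427 and 464 in control, in the order of the replicates. Knockdown replicate 3 was lowest, and the groups did not overlap in CPM (log2 fold change −1.36, SE 0.244, edgeR adjusted p = 0.00386). Its copy Gm28661 had 82, 83 and 42 counts in the knockdown and 218, 168 and 186 in control. Knockdown replicate 3 was the lowest library for the gene and the copy alike, and the copy had a log2 fold change of −1.61 (edgeR adjusted p = 0.00256).

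For mt-Co3, whose product is the third core subunit of complex IV, 38, 44 and 23 counts were found in the knockdown and 242, 271 and 219 in control. It was 7.74-fold lower in the knockdown, with a log2 fold change of −2.95 (SE 0.253, edgeR adjusted p = 0.000172). The copy Gm28437 had 25, 26 and 14 counts in the knockdown and 203, 212 and 164 in control, a log2 fold change of −3.30 (edgeR adjusted p = 0.000134). Within complex IV the fitted fold changes thus ran from 2.12-fold to 7.74-fold lower.

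mt-Cytb, the cytochrome b gene and the single subunit of complex III encoded in the mitochondrion, has no near-identical copy among the transcripts compared. It had 12583, 13261 and 13416 counts in the knockdown and 70448, 38740 and 57245 in control. Control replicate 2 was again the lowest control library, and still far above the knockdown. The level was 407 ± 21.8 CPM in the knockdown and 1895 ± 487 CPM in control (SD, n = 3 each), 4.66-fold lower (log2 fold change −2.22, SE 0.209, edgeR adjusted p = 0.000256).

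The complex V genes fell further. mt-Atp6, which encodes the subunit of ATP synthase that forms the proton path with the c-ring, had 71, 73 and 36 counts in the knockdown and 1431, 916 and 823 in control. The level was 1.85 ± 0.601 CPM in the knockdown and 36.2 ± 10.6 CPM in control (SD, n = 3 each), 19.5-fold lower (log2 fold change −4.28, SE 0.332, edgeR adjusted p = 0.000114). Gm10925, its copy, had 66, 102 and 32 counts in the knockdown and 980, 822 and 1791 in control (log2 fold change −4.31, edgeR adjusted p = 0.000428). The copy thus held more counts than the gene in knockdown replicate 2 and control replicate 3, and fewer in the other 4 libraries.

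mt-Atp8, the gene of a short membrane subunit of ATP synthase, had 43, 43 and 35 counts in the knockdown and 953, 214 and 691 in control. The control libraries spread widely, with replicate 2 far below the other 2, but none reached down to the knockdown. The log2 fold change was −4.06 (SE 0.532, edgeR adjusted p = 0.000996). In mammals it shares a bicistronic messenger RNA with mt-Atp6. The order of the control libraries differed between them, with replicate 2 lowest for mt-Atp8 and replicate 3 lowest for mt-Atp6.

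Among the ribosomal RNAs, mt-Rnr1, the 12S RNA of the small subunit, had 606, 483 and 444 counts in the knockdown and 3351, 5903 and 2449 in control. Here control replicate 2 was the highest library, the opposite of its place for mt-Co1, mt-Cytb and mt-Atp8. The log2 fold change was −3.09 (SE 0.367, edgeR adjusted p = 0.000654), 8.54-fold lower.

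mt-Rnr2, the 16S RNA of the large subunit, showed the largest difference of the 8. It had 86, 69 and 68 counts in the knockdown and 2420, 3487 and 1715 in control. The level was 2.31 ± 0.318 CPM in the knockdown and 88.1 ± 34.3 CPM in control (SD, n = 3 each), 38.1-fold lower, with a log2 fold change of −5.25 (SE 0.339, edgeR adjusted p = 5.59e-05). Control replicate 2 was the highest library for this RNA too. Without that library the log2 fold change was −4.91 for mt-Rnr2 and −2.62 for mt-Rnr1, and both stayed past the threshold. Both RNAs were counted in libraries from a messenger RNA kit. The share of each that the kit kept was not measured, so these counts do not give their total amounts.

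Levels per length, as the authors' FPKM, put the genes in different orders in the groups. In the knockdown mt-Co1 was highest, at 2840.0, 2951 and 3126 FPKM, followed by mt-Cytb at 362, 372 and 406 FPKM and mt-Rnr1 at 20.9, 16.2 and 16.1 FPKM. Below them came mt-Co2 (6.22 to 11.7 FPKM) and mt-Atp8 (5.93 to 6.94 FPKM), which overlapped, then mt-Atp6 (1.83 to 3.44 FPKM). The lowest were mt-Rnr2 (1.40 to 1.79 FPKM) and mt-Co3 (1.01 to 1.80 FPKM), which overlapped as well.

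In control mt-Co1 was also highest, at 5819, 3988 and 5871 FPKM, and mt-Cytb came next at 1809.6, 1055 and 1524 FPKM. mt-Rnr1 (78.1 to 193 FPKM) and mt-Atp8 (32.7 to 137 FPKM) overlapped, and mt-Atp8 overlapped with mt-Atp6 (36.8 to 61.8 FPKM) and mt-Rnr2 (33.02 to 68.7 FPKM). mt-Co2 (19.5 to 21.3 FPKM) and mt-Co3 (8.51 to 10.8 FPKM) were lowest. mt-Co2 thus ranked 4 of 8 in each knockdown library and 7 of 8 in each control library.

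The spread between genes of a single enzyme was wide in both groups. The FPKM of mt-Co1 exceeded that of mt-Co2 by a factor of 256, 252 and 503 in the knockdown and of 273, 205 and 284 in control. The genes with an error-free copy, mt-Co2, mt-Co3 and mt-Atp6, were all at or below 11.7 FPKM in the knockdown and 61.8 FPKM in control. Of the genes with no copy found, mt-Cytb was far above these levels. mt-Rnr1 also lay above them, at 16.1 to 20.9 FPKM in the knockdown and 78.1 to 193 FPKM in control. mt-Atp8 and mt-Rnr2 lay at or below 6.94 FPKM in the knockdown. In control they ranged from 32.7 to 137 FPKM and from 33.02 to 68.7 FPKM. The part that shared sequence has in these levels was not tested. Adding the counts of the copies to their genes, a step chosen after the data were seen, gave log2 fold changes of −1.09 for mt-Co1, −1.43 for mt-Co2, −3.10 for mt-Co3 and −4.30 for mt-Atp6, each within its SE of the value without them.

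**Figure D2:**
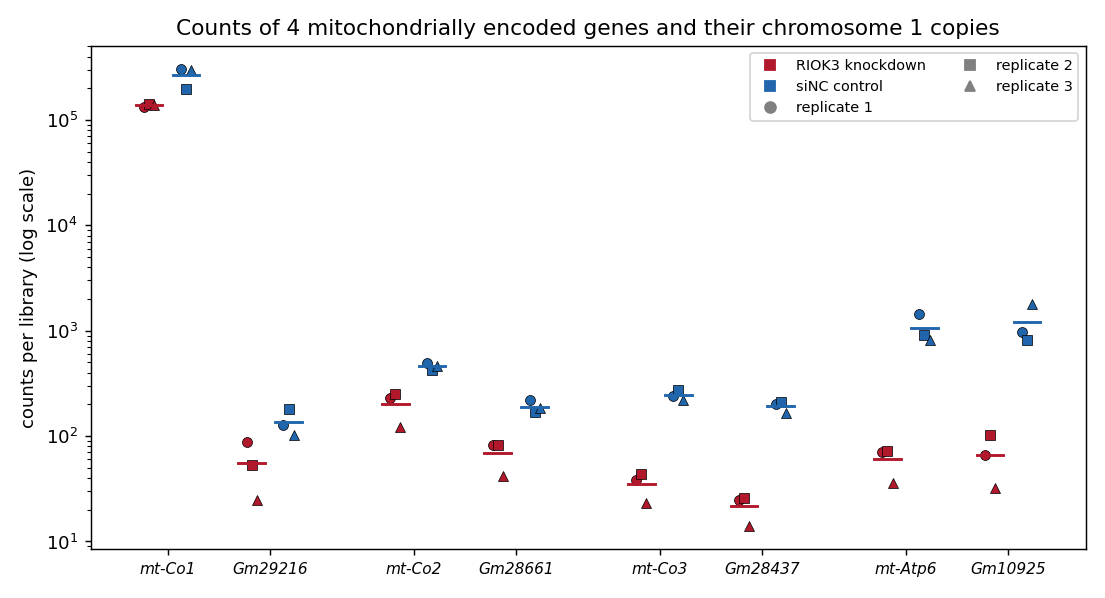
Counts per library (log scale) of 4 mitochondrially encoded genes, each beside its copy on chromosome 1, in RIOK3 knockdown (red, left of each pair) and siNC control libraries (blue); bars are group means. The copies of mt-Co3 and mt-Co2 lie below their genes in every library, Gm10925 lies above mt-Atp6 in 2 libraries, and Gm29216 has at most 181 counts beside at least 133220 of mt-Co1.

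Ratios between genes within a library do not depend on how libraries are scaled. Relative to mt-Co1, on the log2 FPKM scale, mt-Cytb was at −2.97, −2.99 and −2.95 in the knockdown and −1.69, −1.92 and −1.95 in control. mt-Rnr2 was at −10.63, −11.04 and −11.03 in the knockdown and −7.02, −5.86 and −7.47 in control. Of the 7 ratios to mt-Co1, 6 were lower in every knockdown library than in any control library, by means from 1.12 for mt-Cytb to 4.12 for mt-Rnr2. Only mt-Co2 overlapped, with −8.00, −7.98 and −8.97 in the knockdown and −8.09, −7.68 and −8.15 in control, a mean difference of −0.34 (two-sided exact permutation p = 0.6, adjusted over the 7 ratios 0.6). The other 6 had p = 0.1 in the same exact permutation test, the smallest this design allows, and 0.117 after adjustment, so none could pass.

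**Figure D3:**
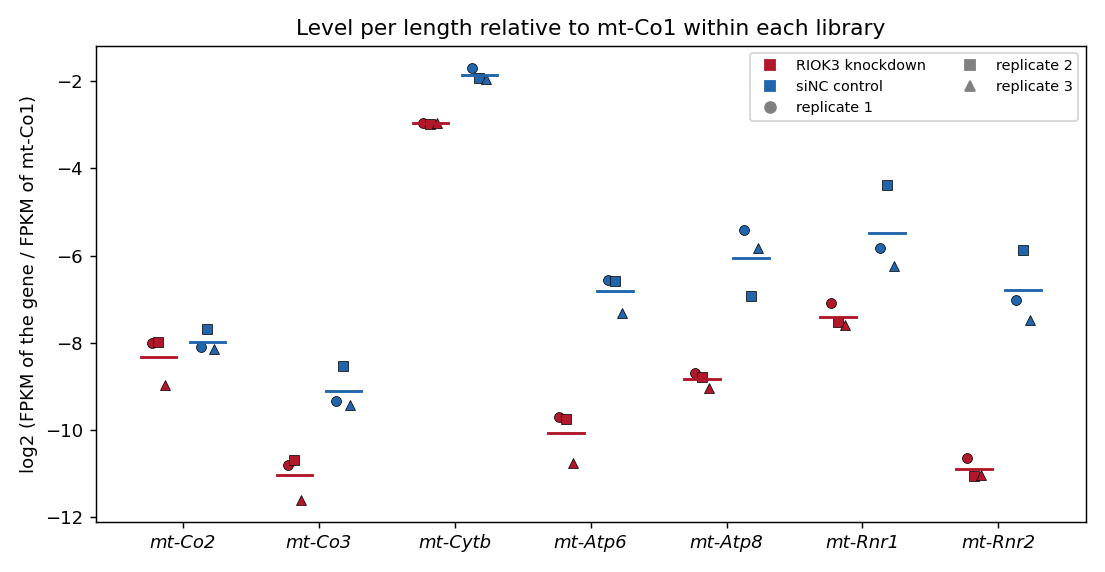
Level per length of 7 genes relative to mt-Co1 within each library (log2 ratio of FPKM), RIOK3 knockdown in red left of siNC control in blue, symbols by replicate, bars for group means. The groups overlap for mt-Co2 only, and control replicate 2 is the highest library for both ribosomal RNAs and the lowest control library for mt-Atp8.

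The ribosomal RNAs together, over the 6 messenger RNAs, had log2 count ratios of −7.72, −8.14 and −8.23 in the knockdown and −6.04, −4.67 and −6.42 in control. The groups did not overlap, with a mean difference of −2.32 (two-sided exact permutation p = 0.1, the smallest possible). Most counts of the messenger RNAs were of mt-Co1, so the ratio mainly sets the ribosomal RNAs beside mt-Co1, which fell least (−1.09). mt-Rnr2 (−5.25) fell most of the 8. mt-Rnr1 (−3.09) fell less than mt-Atp6 (−4.28) and mt-Atp8 (−4.06) and more than the other messenger RNAs. In these libraries, prepared with a messenger RNA kit, the ribosomal RNAs were a small part of the counts of the 8 genes, 0.333 to 0.471% in the knockdown and 1.15 to 3.79% in control. The ribosomal RNAs also differed from each other. The FPKM of mt-Rnr1 was 11.7, 11.6 and 10.8 times that of mt-Rnr2 in the knockdown and 2.29, 2.80 and 2.37 times in control, a ratio chosen after its values were seen (two-sided exact permutation p = 0.1).

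Fold changes in these data followed the base composition of the transcripts, and the 8 genes lie at its low end, with a GC content of 31.9% (mt-Atp8) to 39.9% (mt-Co1). Only 3.99% of the tested genes with a GC value lay below 39.9%. Of the 509 nuclear genes within this range, 463 (91.0%) were called lower and none higher, with a median log2 fold change of −2.39 and quartiles of −3.50 and −1.45. Set beside that median, mt-Co1, mt-Co2 and mt-Cytb fell less and the other 5 fell more. The GC content was 39.1% for mt-Cytb, 38.9% for mt-Co3, 38.6% for mt-Co2, 35.98% for mt-Atp6, 35.8% for mt-Rnr1 and 35.4% for mt-Rnr2. The part of base composition in these fold changes was examined with offsets only.

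**Figure D4:**
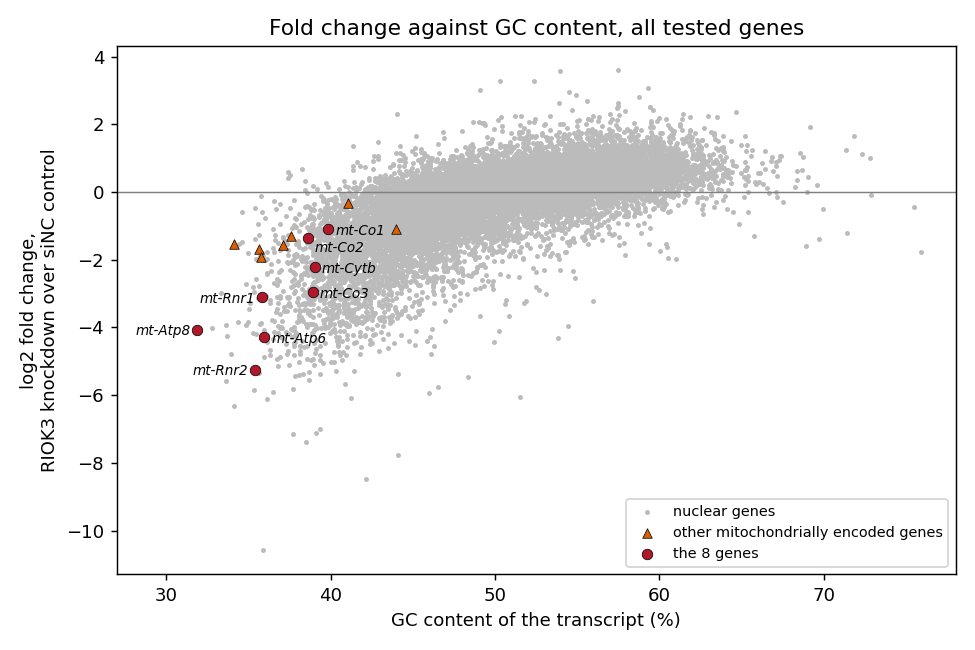
Log2 fold change, RIOK3 knockdown over siNC control, against the GC content of the transcript for each tested gene; grey points are nuclear genes, red points the 8 genes and orange triangles other mitochondrially encoded genes. The 8 genes sit at the low-GC end, where 91.0% of the 509 nuclear genes of their GC range were called lower.

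When each library's trend on GC content was removed with an offset in the edgeR fit, only 2 of the 8 genes were called lower and 2 were called higher. That fit called 15.2% of all genes lower and 16.3% higher. mt-Rnr2 (log2 fold change −2.29, SE 0.416, edgeR adjusted p = 0.00769) and mt-Atp6 (−1.36, SE 0.294, edgeR adjusted p = 0.0144) stayed lower. mt-Co1 turned to 0.97 (SE 0.138, edgeR adjusted p = 0.00291) and mt-Co2 to 0.97 (SE 0.266, edgeR adjusted p = 0.0324), both called higher. mt-Co3 (−0.73), mt-Rnr1 (−0.24), mt-Atp8 (−0.16) and mt-Cytb (0.03) were not called.

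With transcript length removed as well, mt-Rnr2 (−2.44), mt-Atp6 (−1.84) and mt-Co3 (−1.05) were called lower and mt-Co1 (0.71) higher. That fit called 39.6% of all its genes, 2810 higher and 2354 lower. mt-Rnr2 and mt-Atp6 were thus lower, and mt-Co1 higher, under both offsets. The trend is thinly covered at the lowest GC content, where 44 nuclear genes had at most 36% GC and a median log2 fold change of −2.97, and where mt-Atp6, mt-Atp8, mt-Rnr1 and mt-Rnr2 lie. Leaving out control replicate 2 under the GC offset, a setting added after the data were seen, changed some of these calls: mt-Rnr2 was at −1.71, mt-Atp6 at −1.27 and mt-Atp8 at −0.52, all called lower. mt-Co1 (0.95), mt-Co2 (1.10) and mt-Rnr1 (0.49) were then called higher. Without that library the fit called 61.6% of all its genes, 4503 higher and 3732 lower.

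**Figure D5:**
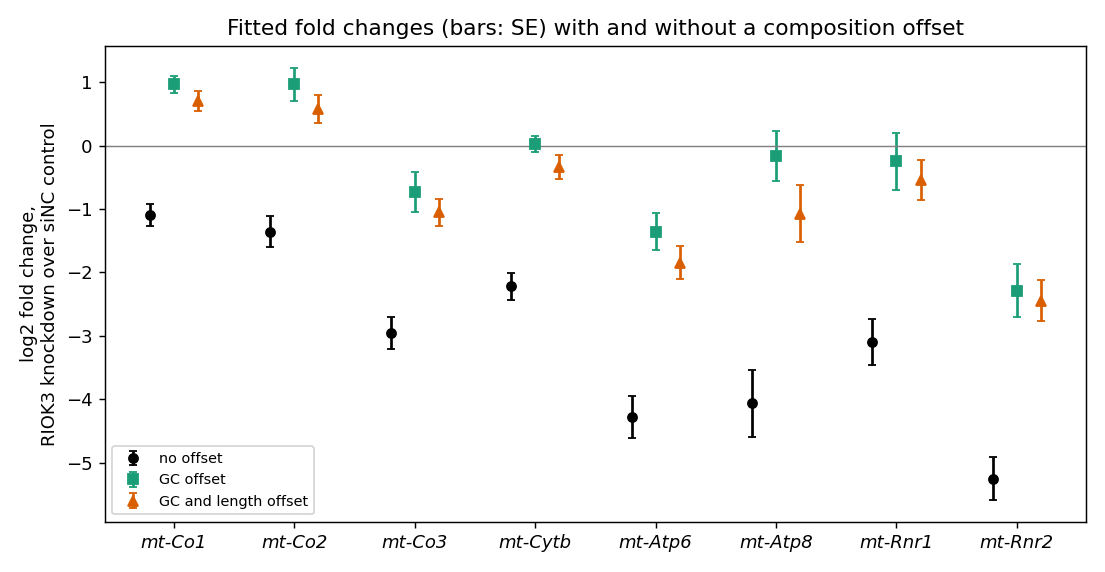
Log2 fold change of each gene, RIOK3 knockdown over siNC control, from edgeR without an offset (black), with a GC offset (green) and with a GC and length offset (orange); bars are SE. Each value is higher with the GC offset than without it, and mt-Rnr2 keeps the lowest value in each of the 3 fits.

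Of the complex I genes of the same genome, 7 were in the table. Of 6 that passed the filter on low counts 5 were called lower, with log2 fold changes from −1.90 (mt-Nd2) to −1.30 (mt-Nd1), and with the GC offset those 5 were called higher. Their levels per length in control, from 129 ± 46.6 FPKM for mt-Nd6 to 1907 ± 225 FPKM for mt-Nd5 (SD, n = 3), bracket that of mt-Cytb. mt-Nd3, the next of these genes after mt-Co3 on the genome, had at most 5 counts in any library, and mt-Nd4l, at 443, 41 and 25 counts in the knockdown and 464, 8 and 119 in control, overlapped between the groups. Of the counts of all 26 mitochondrially encoded genes, the 8 genes held 69.2 to 70.2% in the knockdown and 63.3 to 67.4% in control. All mitochondrially encoded genes together took 0.714 to 0.773% of the counts in the knockdown and 1.26 to 1.82% in control.

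Most nuclear genes whose products join the mitochondrial subunits were not called. The genes not called were 5 of 9 for complex III, 9 of 12 for complex IV and 12 of 18 for complex V. Of 9 nuclear subunits of complex III, 2 rose and 2 fell (median log2 fold change −0.20): Uqcrc1, a core protein, was at 0.84 and the cytochrome c1 gene Cyc1 at 0.69, while Uqcrb and the hinge protein gene Uqcrh were at −0.62 and −0.57. None of these 4 was called with the GC offset, where Uqcrb turned to 0.80. That fit called other members of the list, Uqcrc2 higher (0.71) and Uqcr10 lower (−0.87). Of 12 tested nuclear subunits of complex IV, 3 fell and none rose (median −0.15). Those were Cox7b (−1.18), Cox7c (−0.86) and Cox6c (−0.83), and none was called with the GC offset. Of 18 tested entries for nuclear subunits of complex V, 4 fell and 2 rose (median −0.12), with Atp5mpl at −1.08, Atp5k at −1.04, Atp5j at −0.83 and Atp5pb, the stator subunit b, at −0.74, of which all but Atp5pb were also called lower with the GC offset. Of 27 assembly factors of complexes III and IV, 4 fell and 1 rose (median 0.25), with Lyrm7 at −1.30, Cox20, a chaperone of the mt-Co2 product, at −1.23, Ttc19 at −0.64 and Cox18, which inserts the tail of that product into the membrane, at 0.72. None of these named factors was called with the GC offset, where Ttc19 turned to 0.24. In the whole list that fit called 4 higher and 1 lower. The lower one was Pet100, at −0.75 without the offset and −0.77 with it. These values are set against 48.0% of all tested genes called, 26.8% lower and 21.1% higher, and a median of 0.01. With the GC offset 15.2% of all genes were called lower and 16.3% higher.

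Of 16 genes of mitochondrial DNA maintenance and transcription, 8 fell and 2 rose (median −0.63), beside 26.8% of all tested genes lower and 21.1% higher. The 2 that rose were the polymerase genes Polrmt (0.58) and Polg (0.61). The transcription factor gene Tfb2m, whose product opens the promoter for the mitochondrial RNA polymerase, was at 3.62 ± 0.128 CPM in the knockdown and 12.2 ± 2.09 CPM in control (SD, n = 3 each; log2 fold change −1.76, edgeR adjusted p = 0.000295). Mterf3, a negative regulator of mitochondrial transcription in mice, was at −2.21, its relative Mterf1a at −1.84 and the primase-polymerase gene Primpol at −1.42. With the GC offset none of these 16 genes was called, beside 15.2% of all genes lower and 16.3% higher.

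Genes of mitochondrial RNA processing, stability and decay fell in 9 of 20 cases and rose in 2 (median −0.31), and with the GC offset 4 were called lower and 1 higher. The shares of all genes were 26.8% lower and 21.1% higher, and 15.2% and 16.3% with the GC offset. Trmt10c encodes a subunit of the RNase P that cuts the precursors at the start of transfer RNAs. It was at 5.64 ± 1.08 CPM in the knockdown and 75.3 ± 9.70 CPM in control (SD, n = 3 each; log2 fold change −3.74, edgeR adjusted p = 3.01e-05), and at −2.28 with the GC offset (edgeR adjusted p = 0.000264). Pnpt1, the polynucleotide phosphorylase gene of mitochondrial RNA decay, was at −2.94, and at −1.06 with the GC offset. Lrpprc, which encodes a protein that binds mitochondrial messenger RNAs and supports their stability and polyadenylation, was at −0.94, and at −0.51 with the GC offset. All 3 were called lower in both fits. Mtpap, the mitochondrial poly(A) polymerase gene, was at −1.24, and at 0.17 and not called with the GC offset.

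Of 21 genes of ribosomal RNA modification and mitochondrial ribosome assembly, 6 rose and 1 fell (median 0.33). The lower one was Gtpbp10, a GTPase of large subunit assembly, at −2.49, and it was not called with the GC offset. Mrm1, a methyltransferase of the 16S RNA, was at 1.10, and the GTPase genes Mtg1 and Mtg2 were at 0.97 and 0.63; with the GC offset Mrm1 and Mtg1 were still called higher and Mtg2 was not. Of 12 mitochondrial translation factors, 4 fell and 3 rose (median −0.12), with the initiation factor gene Mtif2 at −1.79, the release factor genes Mtrf1 and Mtrf1l at −1.66 and −1.48, and Ptcd3, whose product sits on the small ribosomal subunit, at −1.64. With the GC offset all of these but Ptcd3 were still called lower. The shares of all genes, 26.8% lower and 21.1% higher, and 15.2% and 16.3% with the GC offset, apply to both lists. The lists share libraries with the 8 genes, so their values are given side by side and not as a relation.

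Among 3441 nuclear genes with a mean of at least 50 CPM, the profile over the 6 libraries closest to that of mt-Co1 belonged to Ide, with a root mean square distance of 0.0439 on the centred log2 CPM scale. It was followed by Atf6 (0.0458), Tsr1 (0.0461), Mdm2 (0.0467) and Gmps (0.0511), with log2 fold changes from −1.13 to −1.01. None of these 3441 genes came as close to mt-Rnr2. The nearest to it were Hmgn5 (0.418), Cxcl1 (0.441), Lrrcc1 (0.455), Ift74 (0.469) and Ccar1 (0.477), with log2 fold changes from −4.97 to −4.42. Nuclear genes of lower mean level were not compared. The distances describe 6 libraries in 2 groups and carry no test.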

How the data were processed

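The authors deposited raw counts per gene, whole numbers for 22030 genes in 6 libraries, and FPKM values of 21879 genes, which the authors scaled by gene length and library total. HISAT2, MultiQC and GRCm39 are named, without role or version, per the submitters' processing notes; the sources used here do not give the counting tool, its strand setting or its treatment of multiple matches. Per the labels' protocols, 2 μg of RNA per library entered a stranded messenger RNA kit, products of 200 to 500 bp were enriched and both ends were read for 150 bases.

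Tests on these counts used edgeR 4.0.16 under R 4.3.3: filterByExpr (13067 genes holding 99.95% of counts), TMM factors, robust glmQLFit and glmQLFTest without covariates, Benjamini-Hochberg adjustment over all tested genes, threshold 0.05. The SE was derived from the log2 fold change and its F statistic (absolute change over root F). Levels are TMM-normalised CPM, and the summed levels of lists and markers are CPM of library totals. Alternatives used DESeq2 1.42.0, limma 3.58.1 (voom with sample quality weights; trend on log2(FPKM + 1) and log2(FPKM + 0.1)), other scalings and filters, nuclear scaling, a replicate block, each library left out and offsets for composition. The offsets were loess trends (span 0.3, degree 1) of each library's log2 CPM, prior count 2, after subtracting each gene's mean over the libraries. They were fitted on the GC content, or GC content and log2 length, of the GENCODE M21 transcript with the longest coding part, available for 13043 genes (99.8%). Copies were searched with blastn 2.17.0. The edgeR, DESeq2 and voom fits and the GC offset were also run on simulated counts with a fixed dispersion, which these libraries need not share.

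The 8 genes, the lists and the rule for named genes (the 8, up to 4 of each nuclear list by p, and the 5 nearest profiles of mt-Co1 and mt-Rnr2) were chosen with earlier results of these data known. A few further genes of the nuclear lists are also named.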

Additional observations from a re-analysis of the deposited data

How the results depend on the processing

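All 8 genes were called lower under RLE, upper-quartile, library-total and nuclear scaling, with either other filter, by DESeq2 and limma-voom, on filtered FPKM, with the copies added and with each library left out, where the number stayed at 8; unfiltered FPKM left 7, with mt-Co1 at −0.79 (limma adjusted p = 0.0544). The number called was 4 with the GC offset, 4 with the GC and length offset and 4 with the GC offset and a replicate block. Of all genes these called 31.6, 39.6 and 23.8%. mt-Co1 reversed to 0.97, 0.71 and 0.97 in those fits and to 0.95 with the GC offset and no control replicate 2. mt-Co2 reversed to 0.97, 0.58, 0.92 and 1.10 in the same order. mt-Cytb was at 0.027 with the GC offset and 0.031 with the block added, and mt-Rnr1 at 0.49 with the GC offset and no control replicate 2. The cause was not tested. Taken as a share of mitochondrial counts, the 8 genes were 4.52 percentage points higher in the knockdown; left-out libraries gave −0.648 to −0.455 for the share of all counts and −2.68 to −1.80 for the log2 ratio of ribosomal to messenger RNAs.

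Of all genes, 6266 were called (2758 higher, 3508 lower), 9477 by limma-voom, 4120 with the GC offset, 3108 with the GC offset and block, and 4340 to 9592 with a library left out, the highest without control replicate 2. Upper-quartile scaling gave 3771 higher and 2938 lower and library totals 4280 and 2814, with medians of 0.21 and 0.26 against 0.01; the median of the 8 genes was then −2.86 and −2.77. Same-numbered libraries deviated with correlations of −0.08, 0.04 and 0.05. With 3 libraries per group such values cannot show if the libraries were paired, and the titles give only a replicate number. The block alone called 5615 genes, with all 8 genes described here among them. Counts of 23 to 86 in mt-Co3, mt-Atp6, mt-Atp8 and mt-Rnr2 limit their knockdown levels.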
